A study of Mus musculus with 30 samples.

Results

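Monoamine, acetylcholine, adenosine, histamine and neuropeptide receptors set how hippocampal neurons respond to inputs from the brainstem, basal forebrain and hypothalamus and to peptides released by local interneurons. The mRNAs of 47 such receptors, named as a list of genes, were followed here in the hippocampus of mice with and without TIMP2, an inhibitor of metalloproteinases that remodel the extracellular matrix. All 47 had a row among the 49315 gene identifiers counted, and 46 were among the 16486 genes that passed the filter on low counts. The one that did not pass was Galr1, a galanin receptor, with 2 to 21 counts per mouse.

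Most of these receptors span the membrane with a bundle of helices and act through G proteins. Those coupled to Gi/o lower cyclic AMP and open potassium channels, those coupled to Gq release calcium, and those coupled to Gs raise cyclic AMP, while nicotinic receptors are channels opened directly by acetylcholine. Of the 47 members, 24 are mainly Gi/o-coupled, 12 Gq-coupled and 8 Gs-coupled, and 3 are nicotinic subunits. In the hippocampus such receptors are known for tuning the excitability of pyramidal cells, granule cells and interneurons and for acting on learning, stress responses and seizures.

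Poly(A) RNA-seq was run on 1 hippocampal library for each of 30 C57BL/6J mice: 13 carried a constitutive deletion of Timp2 (KO; 7 females and 6 males) and 17 were wild-type controls (WT; 7 females and 10 males). The age of these mice was not given in the labels, no treatment was named, and the deletion is not limited to the hippocampus or to a cell type. Libraries held 18345517 to 41081083 counts in KO and 19445246 to 32098386 in WT. Timp2 itself, in CPM (counts divided by the TMM-scaled library total and set to 1000000 counts a library), ran from 130 to 171 in KO and from 256 to 380 in WT. The groups did not overlap, which bears on the genotype labels only and not on those of sex. Counts of the gene remained in KO (log2 fold change -0.999, SE 0.053, adjusted p = 7.62e-16 in edgeR's quasi-likelihood test). These levels alone do not tell a homozygous from a heterozygous deletion. Heterozygous mice were not used, per the study's methods. The exons behind the Timp2 counts that remained in KO were not tested, since the table gives 1 count per gene. Markers of the tissue were as follows: 5 genes of hippocampal neurons averaged 9.08 to 9.43 log2 CPM per mouse, against 3.16 to 3.65 for 7 striatal and 2.504 to 2.88 for 6 thalamic and habenular markers. Choroid plexus markers varied most between mice, from 0.993 to 4.90 on that scale, with the highest mean in mouse 11, a KO female. Of the 7 choroid plexus markers tested, 5 were higher in KO at an unadjusted p under 0.05 and 1 at an adjusted p under 0.05, with a median log2 fold change of 0.45, the farthest from 0 of the 13 marker lists. Without mouse 11 the counts were 5 and 0 and the median 0.23, while the median list mean was 2.30 log2 CPM in both genotypes. No receptor followed this list at an adjusted p of 0.05, and its part in the receptor differences was not tested. Mouse 18, a KO male, stood apart for many of the receptors (their values are given with the receptor pairs), and results that rest on it are given with and without it. Fewer cells of a type and less RNA per cell cannot be told apart in such bulk samples.

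Receptor levels covered a wide range. Per kb of exon (RPKM, from CPM scaled by TMM factors), 10 of the 47 averaged 10 or more, 38 averaged 1 or more and 4 averaged under 0.5. Adora1, the inhibitory adenosine receptor, was the highest at 53.5 ± 2.67 RPKM (SD, n = 30), and was above the next member in 30 of 30 mice. Adra1d, a Gq-coupled noradrenaline receptor, came next at 39.5 ± 2.99, close to Chrm1, the main muscarinic receptor of pyramidal cells, at 37.9 ± 1.94. The difference between those neighbours was smaller than the larger SD, whereas Npy2r, a presynaptic receptor for neuropeptide Y, stood clear of Chrm1 at 23.0 ± 2.17.

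Below these came Sstr4 at 16.7 ± 1.93 RPKM and Hrh3, the histamine autoreceptor, at 15.5 ± 2.30, which did not differ beyond their spread. Among the 46 neighbouring pairs in the order of levels, 11 differed by more than the larger SD, so that much of the order in the middle of the range was not resolved. At the bottom stood Oprk1 at 0.142 ± 0.048, Oprm1 at 0.120 ± 0.032 and Galr1 at 0.106 ± 0.051 RPKM, the receptors for dynorphin, for enkephalin and morphine, and for galanin. The neighbours among these 3 did not differ beyond their spread.

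**Figure D1:**
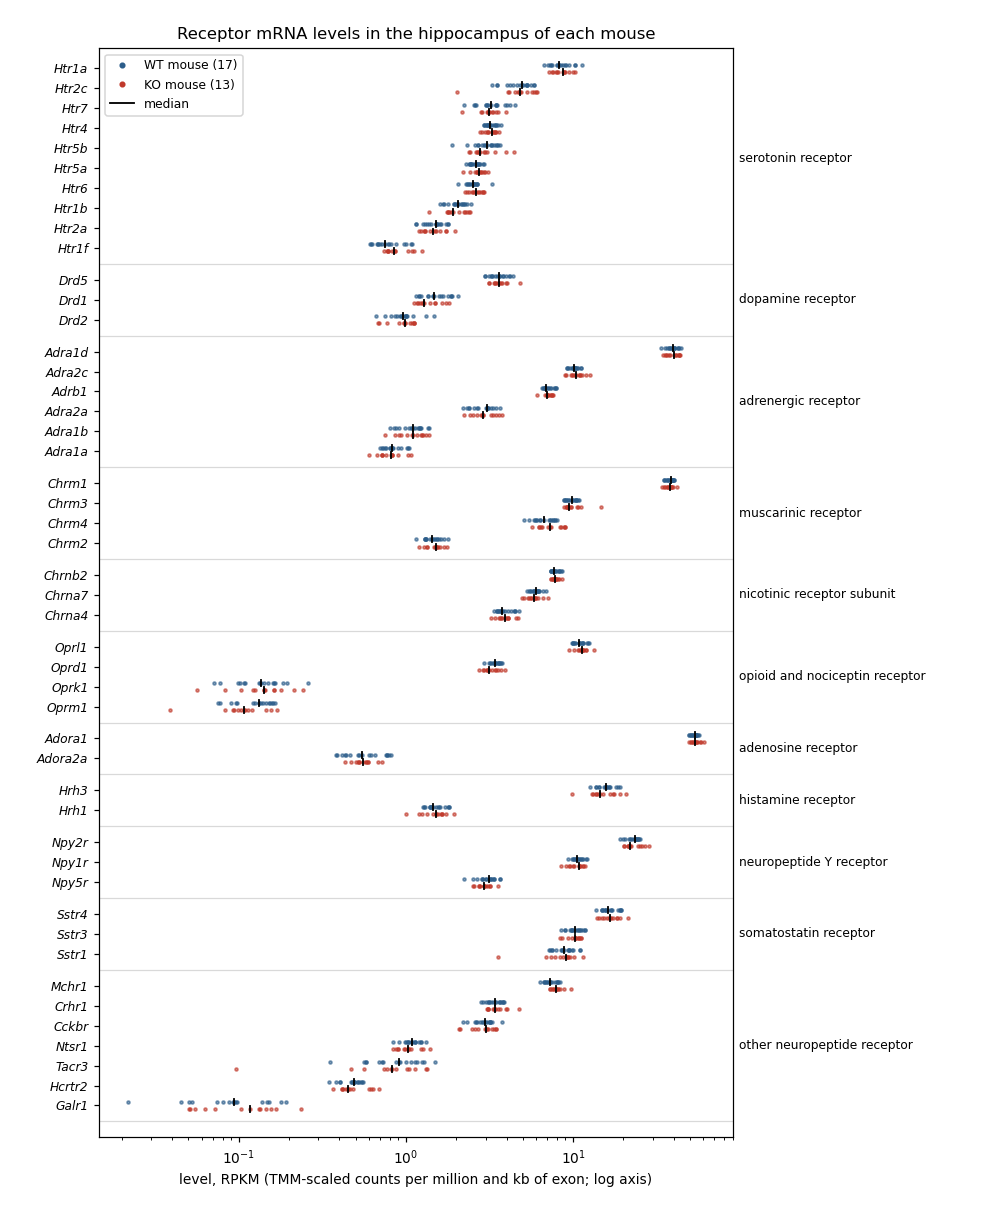
Level of each of the 47 receptor mRNAs in each mouse, in RPKM on a log axis, grouped by receptor family and ordered within a family by mean; blue points are 17 WT mice, red points 13 KO mice and black ticks the medians. KO and WT ranges overlapped for 47 of 47 members, a count that was not made for all genes. Single KO points lie far to the left for Htr2c, Sstr1 and Tacr3, which are those of mouse 18.

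Members also differed in how much they varied between mice. The coefficient of variation of CPM over the 30 mice was 4.77% for Chrnb2, 5.00% for Adora1 and 5.11% for Chrm1, but 26.7% for Oprm1, 33.5% for Oprk1 and 36.3% for Tacr3, the neurokinin B receptor. Tacr3 ran over a 15.4-fold range from the lowest to the highest mouse, against 1.17-fold for Chrnb2, the main partner subunit of brain nicotinic receptors. The width of the Tacr3 range rested on mouse 18, at 0.362 CPM, while the other mice ran from 1.32 to 5.59. The more variable members were mostly the lower ones, with counts as low as 10 for Oprm1 and 12 for Tacr3. Some exons of Chrnb2 (1365 of 8380 bases) lie opposite exons of Adar, which reached 5392 counts, and exon bases opposite another gene were also found for Oprm1 (Ipcef1), Adora1 (Mybph) and 6 further members, whose counts are uncertain because the strand setting of the counting was not given.

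The comparison of KO with WT asked whether loss of TIMP2 changed the receptor mRNAs. None of the 46 tested members passed an adjusted p of 0.05 in edgeR's quasi-likelihood test, against 9 of 16486 genes (0.0546%), and DESeq2 and limma voom also called 0. At an unadjusted p under 0.05, edgeR called 1 member, against 829 genes or 5.03% of all tested (2.47% higher and 2.56% lower in KO). In this fit the members' share of calls was thus no higher than the background. The median log2 fold change of the members was -0.0027 and their median absolute change was 0.034, beside 0.00011 and 0.031 over all genes tested, with 22 of 46 members above 0. The precision was enough to bound most members: the 95% interval of the log2 fold change lay within 0.25 of 0 for 38 of them and within 0.5 for 44. Other fits called 1 to 6 members at an unadjusted p under 0.05. The most were called with sex and surrogate variables, beside 7.39% of all genes.

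The member called in edgeR's fit of genotype alone was Mchr1 (chromosome 15, 81235499 to 81238964, GRCm38, forward strand). It is the receptor for melanin-concentrating hormone, a peptide of lateral hypothalamic neurons that project to the hippocampus. It ran from 15.9 CPM through a median of 17.4 to 21.3 in KO and from 13.8 through 16.0 to 18.4 in WT, so the groups overlapped, with 11 of 13 KO mice above the WT median. The log2 fold change was 0.12 (SE 0.043, 95% interval 0.035 to 0.21, unadjusted p = 0.0075, adjusted p = 0.88 in edgeR's quasi-likelihood test), a rise of 8.78%. The highest value, 21.3 CPM, was that of mouse 18; without this mouse the change was 0.09 (unadjusted p = 0.023). Within females alone it was 0.12 and within males alone 0.14.

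Most listed markers of dentate granule cells were lower in KO, where Mchr1 was higher. Of the 7 listed, Prox1, Dsp, Tdo2, Stxbp6 and Dock10 were lower in KO at an unadjusted p under 0.05 (6 of 7 without mouse 18 and 4 of 7 without mouse 11), and the list's mean ran from 5.67 to 6.11 log2 CPM in KO and from 5.91 to 6.51 in WT. Across the 30 mice Mchr1 was lower where this mean was higher (Pearson's r = -0.518, p = 0.0035, adjusted p = 0.039; Spearman's rho = -0.511, p = 0.0043, adjusted p = 0.048; permutation tests). Without mouse 18, which had the highest Mchr1 and the highest dentate mean of the KO mice, r was -0.628 (adjusted p = 0.011 by permutation). Within WT mice r was -0.622 and within KO mice -0.012, or -0.330 over the 12 KO mice other than mouse 18; the difference between genotypes was not tested. After sex and genotype were fitted over all 30 mice r was -0.311, and it was -0.313 without the 2 mice farthest in the marker mean. The part of these cells in the Mchr1 difference was not tested.

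Among the 10 serotonin receptors, 5 had a fold change above 0 and 5 below, and 0 passed an unadjusted p of 0.05. Htr1a, the inhibitory receptor that serotonin uses on pyramidal cells, had the highest level of the family per kb, 8.54 ± 1.12 RPKM. It ran from 32.0 through 38.8 to 45.9 CPM in KO and from 30.0 through 37.1 to 50.9 in WT (log2 fold change 0.0048, SE 0.064, unadjusted p = 0.94). Htr1f, a Gi/o-coupled receptor targeted by migraine drugs, had the smallest p of the family: 1.90, 2.20 and 3.23 CPM (lowest, median, highest) in KO and 1.58, 1.93 and 2.79 in WT, a log2 difference of 0.20 (SE 0.097, unadjusted p = 0.051). The KO median was the higher and 12 of 13 KO mice were above the WT median, although the ranges overlapped. The call depended on the fit: Htr1f passed an unadjusted p of 0.05 with sex as a covariate (log2 0.22, p = 0.023), in females alone (0.23, p = 0.048), without mouse 11 (0.22, p = 0.035) and with no filter (0.20, p = 0.049). It did not with sex and surrogate variables (0.16, p = 0.096), with voom (0.17, p = 0.072), in males alone (0.21, p = 0.17) or without mouse 18 (0.15, p = 0.13), which had the highest Htr1f.

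For the 3 dopamine receptors, Drd5, a D1-class receptor, was the highest at 3.61 ± 0.43 RPKM. It ran from 9.91 through 11.3 to 15.3 CPM in KO and from 9.32 through 11.3 to 13.8 in WT (log2 0.026, SE 0.060, unadjusted p = 0.67). Drd1, the other D1-class receptor, had the smallest p, with 4.05, 4.64 and 6.57 CPM in KO and 4.20, 5.32 and 7.43 in WT (log2 -0.14, SE 0.087, unadjusted p = 0.11). Its KO median was lower and 5 of 13 KO mice were above the WT median; with sex as a covariate the difference was -0.17 (p = 0.031).

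Of the 6 adrenergic receptors, Adra1d ran from 65.6 through 76.5 to 83.2 CPM in KO and from 63.7 through 75.6 to 84.3 in WT (log2 0.0051, SE 0.038, unadjusted p = 0.89). Adra2c, a presynaptic Gi/o-coupled receptor, had the smallest p of the family and ran from 30.7 through 36.1 to 43.8 CPM in KO and from 31.5 through 34.9 to 38.5 in WT (log2 0.057, SE 0.041, p = 0.17). The KO values of Adra2c spanned those of WT on both sides.

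Among the 4 muscarinic receptors, Chrm1 ran from 220 through 247 to 272 CPM in KO and from 228 through 249 to 262 in WT (log2 -0.015, SE 0.027, unadjusted p = 0.57). Chrm4, which is Gi/o-coupled and presynaptic at many hippocampal terminals, ran from 8.18 through 10.4 to 12.9 CPM in KO and from 7.29 through 9.60 to 11.5 in WT (log2 0.14, SE 0.073, p = 0.065). The groups overlapped for both, with 8 of 13 KO mice above the WT median for Chrm4. Chrm4 passed an unadjusted p of 0.05 in 5 of 12 other fits, among them the one with sex as a covariate (log2 0.15, p = 0.045) and males alone (0.21, p = 0.043).

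For the 3 nicotinic subunits, Chrnb2 ran from 61.5 through 65.6 to 71.7 CPM in KO and from 61.5 through 64.7 to 72.1 in WT (log2 0.0010, SE 0.026, unadjusted p = 0.97). Chrna7, which forms channels on its own, had the smallest p, with 22.3, 26.5 and 32.1 CPM in KO and 23.9, 27.2 and 31.0 in WT (log2 -0.041, SE 0.043, p = 0.35). KO and WT ranges nearly coincided for these subunits.

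Of the opioid family, Oprl1, the nociceptin receptor, had the highest level, with 35.5, 42.8 and 50.3 CPM in KO and 36.9, 40.9 and 47.1 in WT (log2 0.037, SE 0.040, unadjusted p = 0.37). Oprd1, the delta receptor, had the smallest p, with 11.1, 12.6 and 15.8 CPM in KO and 11.7, 13.8 and 15.1 in WT (log2 -0.077, SE 0.044, p = 0.090). The KO median of Oprd1 was the lower, and 4 of 13 KO mice were above the WT median. Oprm1 had the fold change farthest from 0 of all members (log2 -0.22, SE 0.14, p = 0.13) with an interval from -0.52 to 0.069, since its levels were near 1 CPM.

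Adora1 ran from 285 through 309 to 350 CPM in KO and from 285 through 309 to 326 in WT, with a log2 difference of 0.027 (SE 0.026, unadjusted p = 0.30). Adora2a, the striatal adenosine receptor that raises cyclic AMP, was at 1.33 to 2.21 CPM in KO and 1.17 to 2.48 in WT. Hrh3 ran from 30.9 through 45.7 to 65.5 CPM in KO and from 39.6 through 49.5 to 60.1 in WT (log2 -0.043, SE 0.073, p = 0.56). The lowest KO value of Hrh3 was again that of mouse 18.

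Npy2r ran from 67.9 through 74.4 to 96.1 CPM in KO and from 64.3 through 79.9 to 84.8 in WT (log2 0.016, SE 0.046, unadjusted p = 0.73). Npy5r had the smallest p of its family, with 6.41, 7.52 and 9.14 CPM in KO and 5.73, 8.04 and 9.37 in WT (log2 -0.065, SE 0.059, p = 0.28). For the somatostatin receptors, which take the peptide of dendrite-targeting interneurons, Sstr4 ran from 19.7 through 23.5 to 30.5 CPM in KO and from 19.6 through 23.1 to 27.7 in WT (log2 0.016, SE 0.057, p = 0.79). Sstr1 had the smallest p of the 3, with 7.28, 18.6 and 23.5 CPM in KO and 14.7, 18.2 and 22.6 in WT (log2 -0.065, SE 0.095, p = 0.50). The sign of the Sstr1 difference rested on mouse 18, without which it was 0.0071.

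Members were also counted by coupling class. Of the tested members, 13 of 23 Gi/o-coupled, 5 of 12 Gq-coupled, 3 of 8 Gs-coupled receptors and 1 of 3 channel subunits had a fold change above 0, and the class medians lay between -0.0098 and 0.016 on the log2 scale.

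**Figure D2:**
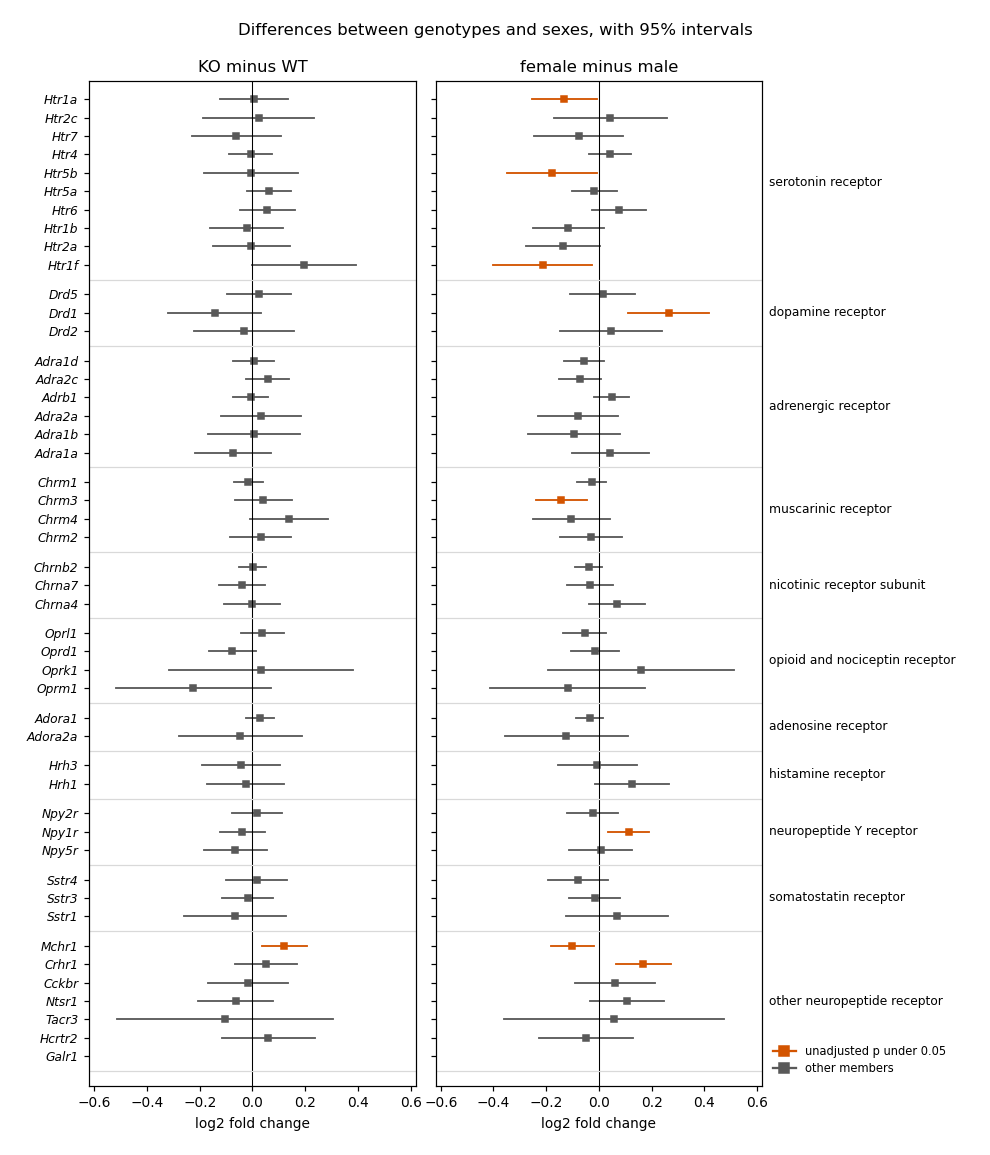
Log2 fold change of each receptor mRNA with its 95% interval, KO minus WT on the left and female minus male on the right, grouped by family; orange marks an unadjusted p under 0.05, and Galr1, which was not tested, is left blank. On the left only Mchr1 is orange, at 0.12; on the right 8 members are, with Drd1 at 0.26 and Htr1f at -0.21 the farthest from 0.

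Genes of the same pathways were tested alongside. In edgeR's quasi-likelihood test, 0 of the 135 related genes tested passed an adjusted p of 0.05. Of 27 other neuromodulator receptors tested, 1 was higher and 1 lower in KO at an unadjusted p under 0.05. The higher one was Avpr1b, a vasopressin receptor (log2 0.52, SE 0.22, p = 0.025), which averaged under 1 CPM. Of 14 neuropeptide precursors and 22 desensitization and RGS genes, 0 were called in either direction.

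Of 19 genes of transmitter synthesis, transport and breakdown, 2 were called, the monoamine transporter Slc22a3 (log2 0.42, SE 0.21, p = 0.047) and the adenosine transporter Slc29a1 (-0.071, SE 0.035, p = 0.047). Among 21 G protein subunits, Gng7 was lower (-0.076, SE 0.026, p = 0.0063) and Gng4 higher (0.10, SE 0.050, p = 0.044). Of 32 second messenger enzymes and G protein-gated channels, the cyclic nucleotide phosphodiesterases Pde4b (0.079, SE 0.027, p = 0.0056) and Pde1b (-0.082, SE 0.029, p = 0.0084) and the adenylyl cyclase Adcy2 (-0.047, SE 0.021, p = 0.030) were called. None of the genes named here lies within 10 Mb of Timp2. In all, 9 of 135 (6.67%) were called, beside the 5.03% of all genes.

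Females were then compared with males, with genotype in the fit. At an unadjusted p under 0.05, 8 of 46 members were called, beside 9.77% of all genes (5.14% higher and 4.63% lower in females). At an adjusted p of 0.05, 0 passed in edgeR's quasi-likelihood test, beside 0.218% of all genes. DESeq2 called 8 unadjusted, beside 5.52% of the 33550 genes it tested, which were not filtered on low counts. Limma voom called 9, beside 10.9% of the genes that passed the filter. Each called 0 adjusted. Higher in females at an unadjusted p under 0.05 in edgeR were Drd1, Crhr1 and Npy1r, and lower were Chrm3, Mchr1, Htr1f, Htr1a and Htr5b. Without mouse 18 the count was 7, beside 10.3% of all genes. Htr1f (log2 -0.18, p = 0.065) and Htr1a (-0.11, p = 0.068) were then no longer called and Oprl1 was (-0.075, p = 0.046). Without mouse 11 the count was 6, beside 9.03% of all genes, with Htr1a (-0.12, p = 0.052) and Htr5b (-0.16, p = 0.068) no longer called. The 3 with the smallest p follow.

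Drd1 (chromosome 13, 54051183 to 54055705, reverse strand) ran from 4.22 through 5.86 to 7.43 CPM in females and from 4.05 through 4.77 to 6.51 in males (log2 0.26, SE 0.075, unadjusted p = 0.0013, adjusted p = 0.18 in edgeR's quasi-likelihood test). It was higher by 20.1%, and 11 of 14 females were above the male median. Crhr1, the receptor through which corticotropin-releasing hormone acts in stress, ran from 7.93 through 8.98 to 11.6 CPM in females and from 6.96 through 7.68 to 9.81 in males (log2 0.17, SE 0.052, unadjusted p = 0.0024, adjusted p = 0.20). All 14 females were above the male median of Crhr1, and 1 of 16 males was above the female median. That male was mouse 18, without which the difference was 0.20 (unadjusted p = 0.00037 in the same test) and Crhr1 followed microglial markers with r = 0.599. Of 4 such markers, 1 was higher in females at an unadjusted p under 0.05 over all mice. The median list mean was 5.74 log2 CPM in females and 5.69 in males. The part of microglia in the Crhr1 difference was not tested. Chrm3, a Gq-coupled muscarinic receptor, ran from 55.4 through 57.9 to 66.7 CPM in females and from 55.4 through 64.0 to 92.05 in males (log2 -0.14, SE 0.048, unadjusted p = 0.0051, adjusted p = 0.27). Its highest value was that of mouse 18, without which the difference was -0.09 (p = 0.0084). Of 5 hippocampal neuron markers, which Chrm3 followed across mice (r = 0.736, and 0.672 without mouse 18), Neurod6 and Slc17a7 were lower in females at an unadjusted p under 0.05, with a median list mean of 9.18 log2 CPM in females and 9.24 in males. The part of these cells in the Chrm3 difference was not tested.

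Other markers also differed between the sexes: at an unadjusted p under 0.05, 2 of 8 CA2 and CA3 markers were lower in females, and 2 of 7 dentate granule cell and 2 of 5 astrocyte markers were higher. Of 9 neocortical markers, Scnn1a, Rorb, Rprm and Tle4 were higher and Hs3st4 lower in females at an unadjusted p under 0.05, with a median list mean of 4.61 log2 CPM in females and 4.52 in males. Drd1 was higher where this mean was higher (r = 0.529, p = 0.0026, adjusted p = 0.033; rho = 0.527, p = 0.0032, adjusted p = 0.040; permutation tests), with r = 0.161 within females, 0.676 within males, 0.470 without the 2 farthest mice and 0.529 without mouse 18. Without that mouse, 2 of the 9 neocortical markers were higher and 1 lower in females. How far the tissue taken set the Drd1 difference was not tested.

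The interaction of sex and genotype asked whether KO differed from WT by another amount in females than in males. For 1 of 46 members the unadjusted p was under 0.05, beside 2.57% of all genes (1.39% with KO minus WT larger in females and 1.18% in males). In edgeR 0 of 16486 genes (0%) passed an adjusted p of 0.05. DESeq2 and limma voom likewise called 1 member unadjusted and 0 adjusted. The unadjusted shares were 1.68% of 33550 genes, not filtered on low counts, for DESeq2 and 3.16% of 16486 for voom. That member was Oprk1 (chromosome 1, 5588466 to 5606131, forward strand), the kappa receptor for dynorphin of mossy fibres. In females it ran from 1.11 through 1.49 to 2.22 CPM in KO and from 0.708 through 1.21 to 1.77 in WT. In males it ran from 0.513 through 1.05 to 1.495 CPM in KO and from 0.648 through 1.33 to 2.39 in WT. KO medians were thus above WT in females and below WT in males, with overlap in both sexes. KO minus WT was 0.41 in females and -0.40 in males on the log2 scale, a difference of 0.81 (SE 0.33, unadjusted p = 0.019, adjusted p = 1.00 in edgeR's quasi-likelihood test). The lowest KO male was mouse 18, without which the interaction was 0.66 (p = 0.044).

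**Figure D3:**
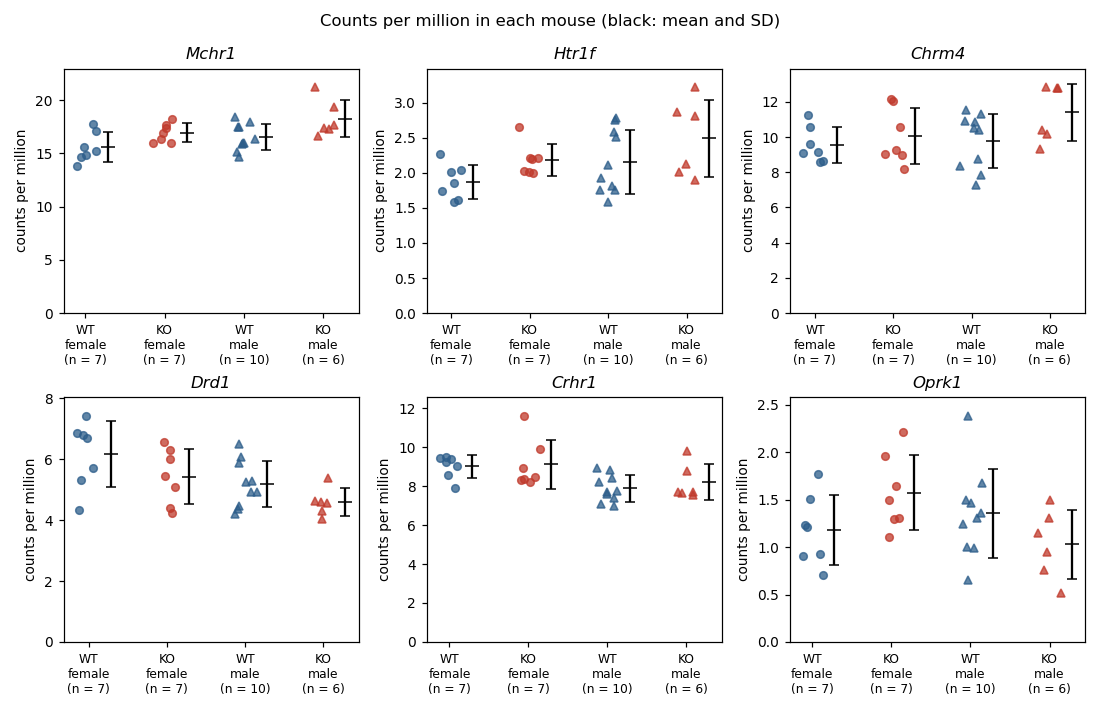
CPM in each mouse for Mchr1, Htr1f, Chrm4, Drd1, Crhr1 and Oprk1, with circles for females, triangles for males, blue for WT and red for KO; black marks give the mean and SD of each group of 6 to 10 mice. Groups overlap in each panel, and the KO male with the highest Mchr1 and the lowest Oprk1 is mouse 18.

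Receptor levels were then compared with each other across mice. Over the 30 mice, 123 of the 1035 pairs of members passed an adjusted p of 0.05 in permutation tests with 100000 resamples (83 with r above 0 and 40 below). Without mouse 18 the count was 47 (39 above and 8 below), so the count depended on this mouse. Pairs among all genes were not computed, so whether such counts are particular to receptors cannot be told. Over all 30 mice the 3 pairs with the largest r joined Htr2c, Sstr1 and Tacr3. Without mouse 18 the order changed: Htr2c with Sstr1 (r = 0.784) was followed by Htr5b with Hrh3 (0.759, against 0.635 over all mice) and Adra2a with Tacr3 (0.755), and Sstr1 with Tacr3 came sixth. Htr2c is a Gq-coupled serotonin receptor of chromosome X (146962513 to 147197277), Sstr1 a Gi/o-coupled somatostatin receptor of chromosome 12 (58211772 to 58214444), and Tacr3 a Gq-coupled neurokinin receptor of chromosome 3 (134829007 to 134934579), all on the forward strand.

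Htr2c ran from 18.8 through 44.9 to 57.1 CPM in KO and from 30.7 through 46.4 to 54.8 in WT (log2 0.024, SE 0.10, unadjusted p = 0.82), and Tacr3 from 0.362 through 3.12 to 5.04 in KO and from 1.32 through 3.44 to 5.59 in WT (log2 -0.10, SE 0.20, p = 0.61). Both log2 differences include mouse 18, which had the lowest KO value of each receptor. In the other mice Htr2c ran from 30.7 to 57.1 CPM and Tacr3 from 1.32 to 5.59. Both genotypes held mice high and low in these receptors. Htr2c and Sstr1 followed each other with r = 0.895 (rho = 0.744), Sstr1 and Tacr3 with r = 0.869 (rho = 0.773), and Htr2c and Tacr3 with r = 0.840 (rho = 0.716). For r, each p was 1e-05, the smallest the resamples can give, and the adjusted p was 0.0010. For rho, p was 1e-05, 1e-05 and 3e-05 and the adjusted p 0.0017, 0.0017 and 0.0035.

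Each of these r was above 0 within each genotype and each sex. For Htr2c and Sstr1, r was 0.932 in KO, 0.872 in WT, 0.740 in females and 0.943 in males; for Sstr1 and Tacr3 it was 0.920, 0.728, 0.585 and 0.939; and for Htr2c and Tacr3 it was 0.947, 0.647, 0.622 and 0.908. Without the 2 mice farthest from the median the 3 values were 0.762, 0.645 and 0.657. Without mouse 18 they were 0.784, 0.688 and 0.671, with adjusted p-values of 0.0034, 0.0059 and 0.0059 in permutation tests.

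**Figure D4:**
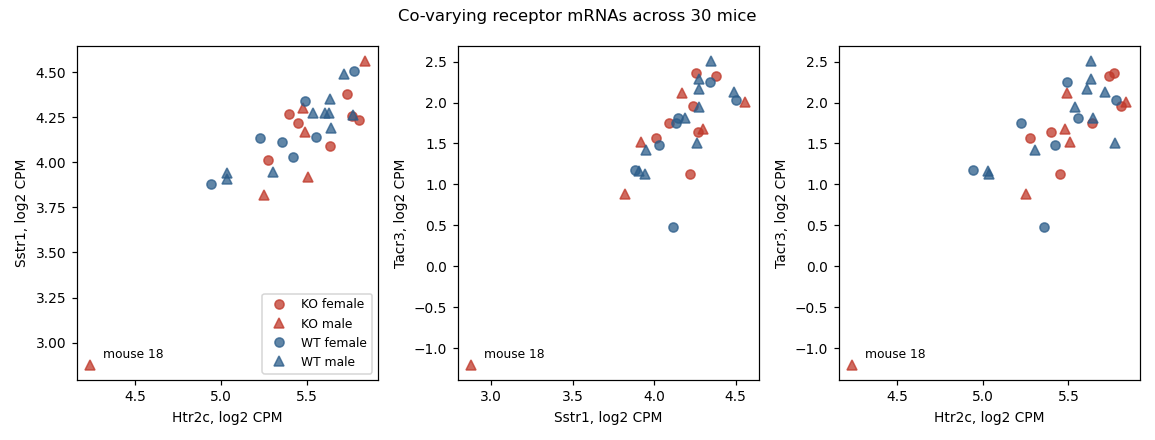
Log2 CPM of Htr2c, Sstr1 and Tacr3 against each other in each of the 30 mice, with circles for females, triangles for males, blue for WT and red for KO. Mouse 18 lies far below the others on each axis, and among the other 29 mice the points still rise together (r = 0.784, 0.688 and 0.671 from left to right).

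Other members joined the same set with smaller r. Oprk1 followed Htr2c (r = 0.752, and 0.678 without mouse 18), Hrh3 followed Sstr1 (0.760 and 0.625), and Adra2a, a Gi/o-coupled noradrenaline receptor, followed Tacr3 (0.720 and 0.755) and Oprl1 (0.762 and 0.730). Htr1a and Sstr4, both Gi/o-coupled and found on pyramidal cells, followed each other as well (0.695 and 0.663). Over all mice, rho of these 5 pairs ran from 0.610 to 0.784. Of the pairs that moved in opposite directions, Htr1a against Drd1 kept its value (r = -0.715, and -0.709 without mouse 18; rho = -0.728), whereas Chrm3 against Sstr1 went from -0.746 to -0.403 (rho = -0.382 over all mice, adjusted p = 0.18). The r of the named pairs had adjusted p-values between 0.0010 and 0.011 over all 30 mice in permutation tests, and between 0.0034 and 0.014 without mouse 18 apart from Chrm3 with Sstr1, at 0.16.

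The set around Htr2c, Sstr1 and Tacr3 was searched for genes outside the members, chosen after the values had been seen and given with no test. The gene nearest to the mean of the 3 standardized levels, among all tested genes, was Trhr, the receptor for thyrotropin-releasing hormone (r = 0.956, and 0.891 without mouse 18). It was at 0.997 CPM in mouse 18 and at 4.13 to 13.9 in the others. Dcn, the matrix proteoglycan decorin, came next (0.954 and 0.885), at 5.74 CPM in mouse 18 and 27.0 to 66.1 in the others. Fxyd6 (0.938 and 0.852), AW551984 (0.937 and 0.882) and Cadm1 (0.935 and 0.852) were next. Nr2f2, a nuclear receptor, followed too (0.906 and 0.855), though below the first 12 genes over all mice. Epha7 (-0.877 and -0.822) and Sema7a (-0.895 and -0.766), both of them axon guidance genes, went the other way. Several of these genes, Dcn, Trhr and Nr2f2 among them, are known to be expressed more at the temporal end of the hippocampus than at the septal end. Whether the dissected pieces differed along that axis was not tested.

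Mouse 18 was below all other mice for 14 of the 47 receptors and above them for 7. Its Tacr3 was 11.0% of the median of the other mice, its Sstr1 39.2%, its Oprk1 39.3% and its Htr2c 41.4%, while Chrm3 was 153% and Htr1f 159%. Its library held 33964732 counts, within the range of the rest. Its markers also stood at the edges: neocortical (4.32 log2 CPM, others 4.40 to 4.68) and striatal means (3.16, others 3.17 to 3.65) were the lowest. Its hippocampal neuron (9.43, others 9.08 to 9.36), oligodendrocyte (8.40, others 7.66 to 8.23), CA2 and CA3 (5.02, others 4.56 to 4.98) and thalamic means (2.88, others 2.504 to 2.83) were the highest. The part of the tissue taken in this mouse's receptor values was not tested. Mouse 10, also a KO male, had the highest level of 11 members. Such counts for mice 18 and 10 were not made over all tested genes, so they cannot be called particular to receptors.

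Promoters are shown for those of Htr2c, Sstr1 and Tacr3, the receptors of the 3 pairs with the largest r, that have one in RefSeq (GRCm38.p6), as 250 bases before and 50 after the transcript start, with matches to searched motifs in capitals. Of the 47 members 38 have such a window; Sstr1 does not. The motifs, searched on both strands, were the TATA box TATAAA (in 13.6% of the 32851 windows of all genes), the cyclic AMP response element TGACGTCA (1.79%) and its half-site TGACG (20.8%, which the full element contains), the nuclear receptor half-site AGGTCA (16.3%) and the GC box GGGCGG (35.7%). The windows are chrX:146962263-146962562 and chr3:134828757-134829056, both on the forward strand.
Htr2c: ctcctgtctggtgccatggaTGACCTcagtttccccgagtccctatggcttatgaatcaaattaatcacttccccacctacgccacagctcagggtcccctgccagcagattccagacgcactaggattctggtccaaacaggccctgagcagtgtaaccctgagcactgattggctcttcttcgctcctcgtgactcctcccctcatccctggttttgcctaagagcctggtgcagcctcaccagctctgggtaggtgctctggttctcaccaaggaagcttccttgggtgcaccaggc
Tacr3: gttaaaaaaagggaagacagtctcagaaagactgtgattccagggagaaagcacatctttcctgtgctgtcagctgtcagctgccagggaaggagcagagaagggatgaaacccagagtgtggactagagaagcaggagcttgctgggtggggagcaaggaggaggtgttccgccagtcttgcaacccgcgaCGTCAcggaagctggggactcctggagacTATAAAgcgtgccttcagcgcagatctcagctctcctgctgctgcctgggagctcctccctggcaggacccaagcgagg
Htr2c held 1 match, AGGTCA on the reverse strand, which begins 230 bases before the start. Tacr3 held TATAAA 29 bases before the start and TGACG on the reverse strand 58 bases before it. No motif of those searched was shared by both windows, which says only that these letters are not in both.

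Receptor levels were also set against the 13 marker lists of cell types and regions, giving 598 pairs, of which 77 passed an adjusted p of 0.05 in permutation tests over the 30 mice (56 without mouse 18). The counts differed by list. How many of all tested genes follow each list was not computed, so the counts cannot be called particular to receptors. GABAergic interneuron markers were followed by 13 members, all with r above 0, and hippocampal neuron markers by 14, 5 with r above 0 and 9 below. Microglial markers had 10 such members, neocortical 8, dentate granule cell 7, striatal, oligodendrocyte and CA2 and CA3 6 each, CA1 5, astrocyte and endothelial 1 each, and choroid plexus and thalamic or habenular lists 0. The order of the lists rested in part on mouse 18. Without it, interneuron markers had 11 such members, CA1 and dentate granule cell 9 each, hippocampal neuron 8, microglial 6, striatal 4, CA2 and CA3 3, neocortical and oligodendrocyte 2 each, and astrocyte and endothelial again 1 each.

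Over all 30 mice the member with the largest r to interneuron markers was Adra2a (r = 0.762, p = 1e-05, adjusted p = 0.0012; rho = 0.735, adjusted p = 0.0020; permutation tests), with r = 0.775 in KO, 0.763 in WT, 0.860 in females and 0.670 in males. Without the 2 farthest mice r was 0.706, and without mouse 18 it was 0.744, when Hrh3 had the larger r (0.762) and Htr2a a close one (0.743). Hrh3 (0.749), Htr2a (0.684), Oprl1 (0.642), Htr5b (0.635), Oprm1 (0.594) and Htr2c (0.589) followed the same list. Htr2a and Oprm1 are known from interneurons of the hippocampus.

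Adora1 followed hippocampal neuron markers most closely (r = 0.765, p = 1e-05, adjusted p = 0.0012; rho = 0.710, adjusted p = 0.0024; permutation tests; 0.663 without the 2 farthest mice and 0.701 without mouse 18), and Chrm3 (0.736) and Chrm1 (0.649) came with it. Adrb1 (-0.711), Cckbr (-0.669), Hrh3 (-0.636) and Sstr1 (-0.636) went the other way. For CA1 markers the closest was Htr1b, a presynaptic serotonin receptor that CA1 neurons make (r = 0.718, p = 1e-05, adjusted p = 0.0012; rho = 0.752, adjusted p = 0.0020; permutation tests; 0.781 without the 2 farthest mice and 0.717 without mouse 18). Sstr4 followed the CA1 list as well (r = 0.524, p = 0.0030, adjusted p = 0.035; rho = 0.607, adjusted p = 0.015; permutation tests; 0.644 without the 2 farthest mice).

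Lists of tissue next to the hippocampus were of interest because some receptors are rich there. Drd1 (r = 0.054), Drd2 (0.117) and Adora2a (0.022), which mark striatal projection neurons, had no detectable relation to striatal markers (rho = 0.070, 0.113 and 0.063), with permutation p-values of 0.77, 0.54 and 0.91. Htr2c against choroid plexus markers, where that receptor is very abundant, gave r = 0.214 (rho = 0.113; permutation p = 0.23), and Htr5b, known from the habenula, against thalamic and habenular markers gave 0.203 (rho = 0.252; permutation p = 0.28). Ntsr1, a marker of layer 6 in neocortex, had r = 0.386 with neocortical markers (rho = 0.444; permutation p = 0.036 for r and 0.014 for rho, adjusted p = 0.14 and 0.099). Hrh1 had the largest r with the striatal list over all 30 mice (0.622, adjusted p = 0.0063; rho = 0.579, adjusted p = 0.019; permutation tests). Without mouse 18 it was 0.549 (adjusted p = 0.036), below Htr1b (0.641) and Chrna4 (0.598). It also had the largest r with the neocortical list (0.609, adjusted p = 0.0094; rho = 0.507, adjusted p = 0.052), which was 0.466 with an adjusted p of 0.089 without mouse 18.

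For the other lists, the largest r in size over all 30 mice were those of Npy1r with CA2 and CA3 markers (-0.654, adjusted p = 0.0060), Adra2a with dentate granule cell markers (-0.637, adjusted p = 0.0060), Sstr1 with oligodendrocyte markers (-0.664, adjusted p = 0.0022), Crhr1 with microglial markers (0.631, adjusted p = 0.0075), Htr5b with astrocyte markers (-0.524, adjusted p = 0.033) and Chrnb2 with endothelial markers (-0.514, adjusted p = 0.039), all by permutation tests. Each of these kept its sign without mouse 18, with r between -0.659 and 0.599, although Htr2a then had the larger r in size with microglial markers (-0.619). Their rho lay between -0.668 and 0.657, with adjusted p-values between 0.0076 and 0.048 in permutation tests. Hcrtr2 with thalamic and habenular markers (0.402, adjusted p = 0.12) and Drd5 with choroid plexus markers (-0.325, adjusted p = 0.24) did not pass.

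**Figure D5:**
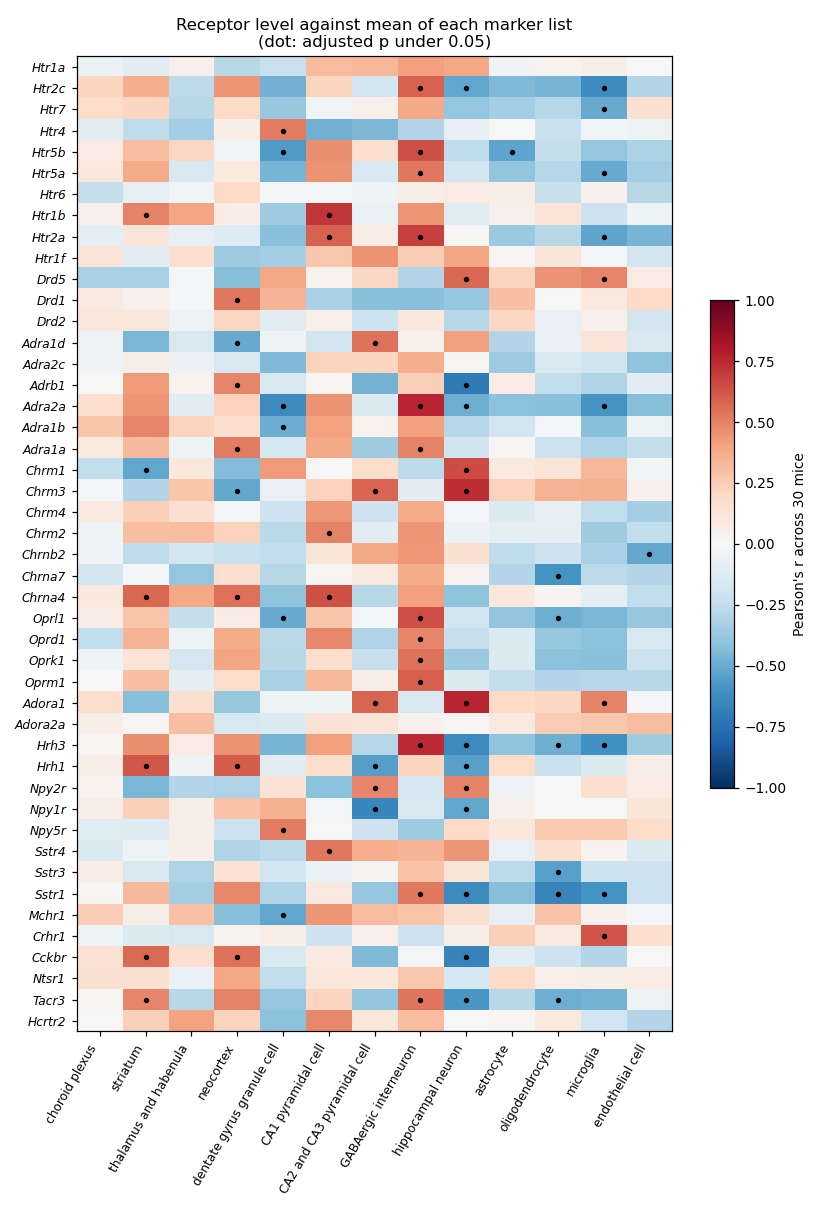
Pearson's r across the 30 mice between the log2 CPM of each tested receptor (rows, grouped by family) and the mean log2 CPM of each marker list (columns), from -1 in blue to 1 in red, with a dot where the adjusted permutation p was under 0.05. The GABAergic interneuron column holds 13 dots, all red, and the choroid plexus and thalamic columns hold none.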

How the data were processed

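RNA-seq reads (paired-end, 150 bases) of 30 mouse hippocampi were trimmed with Trimmomatic 0.36, mapped to GRCm38 with STAR 2.5.2b and counted per gene with featureCounts of Subread 1.5.2, per the submitters' processing notes; annotation release and strand setting were not given in the sources used here. The authors deposited raw counts per gene, with 1 column for each mouse. The labels gave genotype and sex.

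From these counts, edgeR 4.0.16 fitted quasi-likelihood models with TMM scaling to 16486 genes that passed filterByExpr, for genotype alone, for sex with genotype, and for their interaction, with Benjamini-Hochberg adjustment over all genes. Alternatives used DESeq2 1.42.0, limma 3.58.1 with sample weights, sva 3.50.0 (8 surrogate variables), RLE factors, other filters and subsets. Log2 CPM used a prior count of 2. Exon lengths and symbols came from GENCODE M21 (GRCm38). Levels per kb (RPKM) divide TMM-scaled CPM by the length of all exons. Correlations used 100000 permutations, with adjustment over 598 receptor and list pairs and over 1035 receptor pairs. Of these fits, only edgeR's fit of genotype alone was tested on simulated data. The common biological coefficient of variation was 7.52%.

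The members and all gene lists were chosen with earlier results of these data known. Full values were given for members with an unadjusted p under 0.05 and, in each family, for the member with the highest level and that with the smallest p; for sex for the 3 with the smallest p; for related genes for up to 4 a list with an unadjusted p under 0.05; and for pairs for the 3 with the largest r. Other genes and pairs were named after their values were seen. Leaving out mouse 18 and the search for genes near Htr2c, Sstr1 and Tacr3 were also chosen after seeing the data. Galr3 of the related receptors was not analysed here. The values of 1 related gene are not reported here. Controls were littermates per the study's methods, but the litter of each mouse was not given in the labels, so litter was not fitted and p-values measure the spread between these mice.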

Additional observations from a re-analysis of the deposited data

Results flagged for a closer look

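In each of the 4 groups of sex and genotype, the lowest and highest log2 CPM of each member were checked for a gap to the next mouse that is large for the range of the group. Of the 184 groups examined 10 held such a value, where chance gives about 9.2, since about 1 in 20 groups is marked by chance. Mouse 18 gave 4 of the 10.

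Among KO males, mouse 18 was the lowest for Htr2c (4.239 log2 CPM, others 5.25 to 5.84), Tacr3 (-1.201, others 0.878 to 2.12) and Sstr3 (5.17, others 5.42 to 5.55), and the highest for Drd5 (3.941, others 3.33 to 3.55). Also among KO males, mouse 14 was the lowest for Adra1d (6.037, others 6.26 to 6.36). Among KO females, mouse 8 was the highest for Htr1f (1.447, others 1.05 to 1.197), mouse 3 the highest for Adora2a (1.19, others 0.696 to 0.909) and mouse 27 the lowest for Npy1r (4.883, others 5.22 to 5.32). Among WT males, mouse 31 was the lowest for Htr5b (1.894, others 2.54 to 2.84) and mouse 24 the highest for Drd2 (1.934, others 0.979 to 1.41).

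Oprk1 differed between the sexes in KO minus WT, by 0.8101 on the log2 scale (unadjusted p = 0.019, adjusted p = 1.00 in edgeR's quasi-likelihood test of the interaction).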

How the results depend on the processing

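No member passed an adjusted p of 0.05 for genotype, sex or their interaction under any fit run. At an unadjusted p under 0.05, edgeR's fit of genotype alone called 1 member, beside 5.03% of all genes. For the other fits the share of all genes is given in brackets. The count was 2 in females alone (5.02%), in males alone (3.25%) and without mouse 18 (5.60%), which was chosen after seeing the data. It was 3 with no filter (5.87%) and without mouse 11 (5.12%). With sex as a covariate it was 4 (5.62%), and with sex and surrogate variables 6 (7.39%). Mchr1 was called in all 12 other fits. Receptor pairs went from 123 to 47 without mouse 18. The causes of these changes were not tested.

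Of the members named for genotype, those near 0 changed sign under some fits: Htr1a in males alone (-0.0277), voom (-0.0186), sex and surrogate variables (-0.0248) and without mouse 18 (-0.0201); Drd5 in females alone (-0.0198), surrogate variables (-0.0122) and without mouse 18 (-0.0167); Adra1d in voom (-0.0028) and without mouse 18 (-0.0050). Sstr4 did so in females alone (-0.0390), voom (-0.0139), surrogate variables (-0.0413) and without mouse 18 (-0.0190), and Sstr1 in females alone (0.0363) and without mouse 18 (0.0071). Single changes were those of Chrm1 (0.0152) and Npy2r (-0.0016) in males alone, Chrna7 with surrogate variables (0.0011), and Chrnb2 (-0.0011) and Hrh3 (0.00072) without mouse 18. None of these passed an unadjusted p of 0.05.

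No paired analysis was possible because each mouse number occurs once. The study's methods adjusted expression for harvest date as a batch in its network analysis; the labels give no date per mouse, so it could not be fitted here and its part was not tested. Depth limits Galr1, Oprm1, Oprk1 and Tacr3, whose lowest counts were 2, 10, 17 and 12.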
